A study of Mus musculus with 7 samples.

Results

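The mouse Hox gene clusters were examined in open chromatin of pancreatic alpha, beta, and delta cells. The members were the 39 protein-coding GENCODE genes whose symbols consist of Hoxa, Hoxb, Hoxc, or Hoxd and a number, of 21938 protein-coding gene records in all. They lay in 4 clusters on the mm10 build. The 11 Hoxa genes spanned chr6:52155590-52260880, the 10 Hoxb genes chr11:96194316-96368256, the 9 Hoxc genes chr15:102921103-103036852, and the 9 Hoxd genes chr2:74668310-74765142. With 50 kb added on either side, the clusters covered 891815 bp.

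ATAC-Seq, in which a transposase inserts sequencing adapters into accessible DNA, was performed on cells sorted from healthy mouse islets. All mice carried mIns1-H2b-mCherry, a nuclear red reporter driven in beta cells, together with Rosa-LSL-YFP, a yellow reporter switched on by Cre. Gcg-Cre marked alpha cells and Sst-Cre marked delta cells, each in its own line of mice. Between alpha and delta libraries, cell type and mouse line therefore cannot be told apart. Beta cells were sorted from both lines, and the line of each beta library was not given in the sources used here. Cre labels every cell in which its promoter was ever active, and mice were pooled by sex before sorting, so a library averages several animals. The deposited peak lists comprised 2 alpha, 3 beta, and 2 delta libraries, and neither age nor a background strain was given in the sources used here. A peak in such bulk samples that is weak or missing may reflect fewer cells with open chromatin or less opening in each cell, which cannot be told apart.

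Hox genes encode homeodomain transcription factors that give cells their position along the body axis. Their order along a chromosome follows the order of their expression domains, so that genes with low numbers act toward the head and genes with high numbers toward the tail. Vertebrate genes with the same number in different clusters are paralogues. In cells that do not use them, the clusters are commonly held closed by Polycomb complexes, which modify histones to repress transcription, whereas Trithorax complexes keep active Hox genes open. HOX proteins bind DNA together with the cofactors PBX, MEIS, and PKNOX. The pancreas itself depends on Pdx1, a member of the related ParaHox family.

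Distinct peaks per list ranged from 75860 in delta 2 to 518503 in beta 1. Peaks that reached a -log10 q of 2 or more, called strong peaks here, made up the largest share in delta 2, 54.9%, and the smallest in beta 1, where they were 25903 peaks. Beta 1 stood apart, since 73.0% of its peaks shared a single p-value. The names of the files of all 3 beta libraries mention alpha or delta cells, and their labels were followed. By the number of beta markers called, beta libraries could not be told from the others. In every library 3 to 5 of 7 had a peak within 1 kb of the transcription start site (TSS). Slc2a2 and G6pc2 had none in any. The Ins2 record spans chr7:142678656-142743381 and was scored only at 142743381, where beta 3 alone had a peak. Peaks elsewhere in that record were not counted. Ins1 had a strong peak in 2 beta, 0 alpha, and 1 delta libraries. Its percentiles were 98.7, 41.7, and 86.7 in beta 1, beta 2, and beta 3. They were 21.2 and 53.3 in alpha 1 and alpha 2, and 77.2 and 13.9 in delta 1 and delta 2. Alpha markers had such a peak for 7 of 7 genes in both alpha libraries, but also in delta 2, and for 3 to 6 in the others. Delta markers had one for 4 of 4 in both delta libraries, 3 in both alpha libraries and beta 1, and 0 in beta 2 and beta 3. Gcg was called at percentile 94.1 and 91.6 in alpha 1 and alpha 2 and at 47.1 in delta 2, and Sst at 17.1 and 14.4 in delta 1 and delta 2 and at 95.5 in beta 1. Of the 7 mesenchymal markers, which mark a cell type that uses Hox genes, 5 and 4 had a TSS peak in alpha 1 and alpha 2, 2 to 3 in the beta libraries, and 3 in each delta library. Of these, 0 to 2 per library were strong. Col3a1 had no TSS peak in any library, and Twist1 had one in all 7. Their part in the Hox results was not tested. The 5 endothelial and 5 immune markers had 0 to 2 TSS peaks per library, the 7 acinar markers 0 to 3, and the 5 duct markers 1 to 3.

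In every library a smaller share of Hox genes than of all genes had a peak at the TSS. A gene was counted when a peak reached to 1 kb or less from the start of its GENCODE record. In alpha 1, 16 of 39 Hox genes had one, where 60.5% of all protein-coding genes did, and in alpha 2 the count was 16 beside 62.0%. In beta 1 the count was 20 beside 69.7%, in beta 2 it was 3 beside 48.9%, and in beta 3 it was 8 beside 56.8%. In delta 1 the count was 14 beside 62.3%, and in delta 2 it was 2 beside 56.3%. The counts were equal in the alpha libraries, which had 11 of their 16 genes in common, and unequal within beta and delta cells. The longest list held the most Hox calls and the shortest the fewest. By the sequencing depths given with the study, taking its numbering of libraries as that of the labels, alpha 1, alpha 2, and delta 1 had more unique reads than delta 2 and the beta libraries, and these deeper libraries held 16, 16, and 14 Hox calls. The part of list length and of depth was not tested.

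Strong peaks gave lower counts. Among them, the counts of Hox genes were 8 in alpha 1 and 9 in alpha 2, where the shares of all genes were 53.7% and 56.0%. Under the same rule, 0 Hox genes were called in beta 1, beside 38.0%, and 0 in beta 2, beside 39.3%. Beta 3 had 4, beside 47.7%, delta 1 had 3, beside 53.3%, and delta 2 had 0, beside 50.8%. When each list was limited to its 50000 best peaks, 7 Hox genes were called in alpha 1 (53.0% of all genes), 9 in alpha 2 (56.2%), and 1 in beta 1 (44.5%). The counts were 1 in beta 2 (43.2%), 4 in beta 3 (49.7%), 3 in delta 1 (53.9%), and 0 in delta 2 (52.3%). At equal list length both alpha libraries thus held more Hox genes than any beta or delta library, while the beta and delta libraries overlapped.

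**Figure D1:**
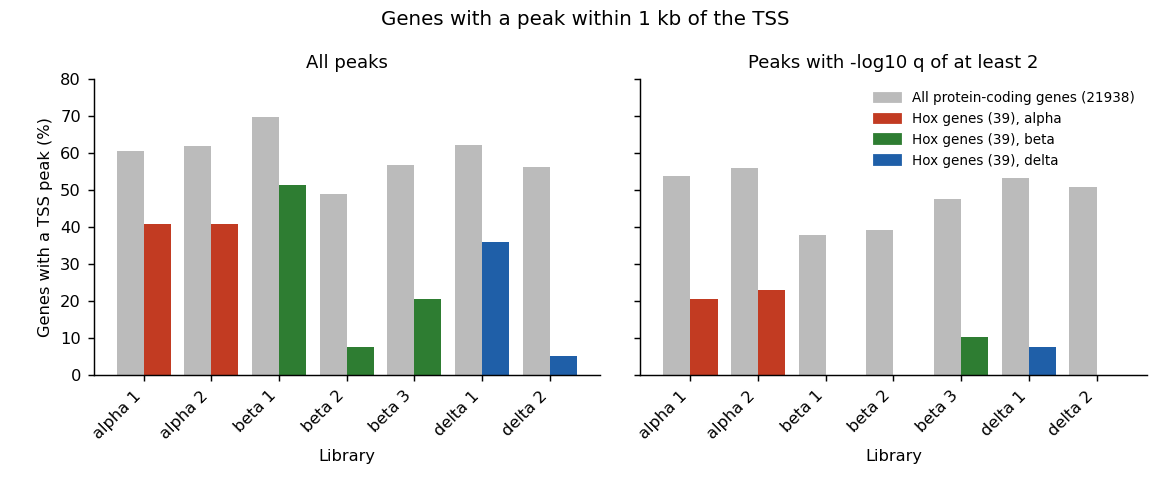
Bars give the percent of genes with a peak within 1 kb of the TSS in each library, in grey for all 21938 protein-coding genes and in colour for the 39 Hox genes, for all peaks on the left and for strong peaks (-log10 q of 2 or more) on the right. The Hox share was below the share of all genes in every library, and at 0 in beta 1, beta 2, and delta 2 on the right.

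The Hox TSS peaks that were called ranked below those of genes in general. The rank of a TSS peak is given as the percentile of its -log10 p within its own list, from 0 to 100. A percentile depends on how many weak peaks a list holds, so equal values in 2 lists are not equal strength. In beta 1, percentile 90.9 at Hoxc11 was a -log10 q of 1.10 and a fold enrichment of 2.70. In alpha 1, percentile 79.7 at Hoxa4 was a -log10 q of 4.52 and a fold enrichment of 5.25. No Hox TSS peak of beta 1 was strong. Over the genes with a TSS peak, the median percentile of Hox genes was 51.6 in alpha 1 and 60.1 in alpha 2, where that of all genes was 90.3 and 90.4. It was 48.1, 41.7, and 55.8 in beta 1, beta 2, and beta 3, beside 96.1, 88.2, and 89.5. It was 65.1 and 28.5 in delta 1 and delta 2, beside 92.1 and 85.1. The highest percentile that any Hox TSS peak reached was 90.9, in beta 1, where 14 of the 20 Hox calls sat at the single commonest p-value of that list, at percentile 48.1. Among all genes called in beta 1, 24.9% sat at that value.

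Across replicates, more Hox genes were called in alpha cells than in the other cell types. In both alpha libraries 11 Hox genes had a TSS peak, and 56.8% of all genes did. In 2 or more beta libraries 5 Hox genes had one, beside 56.1%, and in both delta libraries 2 had one, beside 54.1%. Counting strong peaks alone, the alpha count was 5, beside 51.5%, among them Hoxa4, Hoxc5, Hoxc10, and Hoxd1. Hoxc5 and Hoxc10 take in the same peak, so both alpha counts hold that peak as 2 genes. The beta count was 0, beside 41.4%, and the delta count 0, beside 48.4%. Without beta 1 the beta count fell from 5 to 1. With a single library left for a cell type the count is that of 1 library, which gave 16 with either alpha library, 14 with delta 1, and 2 with delta 2.

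No Hox gene had a TSS peak in all 7 libraries, whereas 41.5% of all genes did. A TSS peak in no library was found for 6 Hox genes, a share of 15.4% beside 17.3% of all genes, which is close to the background. A further 13 of them had a peak in a single library, which was the case for 14.7% of all genes. The median Hox gene had a TSS peak in 2 libraries, and the median protein-coding gene in 6. A strong TSS peak in any library was present at 15 Hox genes, beside 61.9% of all genes, and in all 7 libraries at 0, beside 31.1%.

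Differences between cell types were then sought as a TSS peak that recurred in 1 cell type, in 2 or more of its replicates, and was missing from another. Hoxd10 was called in both alpha and no beta library, as were 1.29% of all genes. Hoxa5, Hoxc5, Hoxc9, Hoxc10, and Hoxd10 were called in both alpha and no delta library, a count of 5 beside 1.21%. Hoxc5 and Hoxc10 take in the same peak and are 1 observation, and the 2 alpha peaks of Hoxd10 did not overlap. Hoxd12 was called in beta and not in delta libraries, a count of 1 beside 2.60%, and Hoxa10 in delta and not in alpha libraries, a count of 1 beside 0.542%. No Hox gene was called in beta and not in alpha libraries, beside 2.37%, or in delta and not in beta libraries, beside 0.807%. When beta 1 was set aside, 5 Hox genes, again with both Hoxc5 and Hoxc10, were called in both alpha libraries and neither remaining beta library, beside 3.87%. In both delta libraries and neither remaining beta library 2 were called, beside 2.68%.

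No Hox gene passed the exact permutation test for a difference in rank between cell types. The test used the between-group sum of squares of the percentiles over all 210 assignments of the 7 libraries, with 0 where a gene had no peak, and was run on every gene with a TSS peak in at least 1 library. Of 33 Hox genes tested, 0 had an unadjusted p of at most 0.05, beside 2.65% of 18145 genes. After Benjamini-Hochberg adjustment 0% of all genes passed. The lowest unadjusted value among Hox genes was that of Hoxd10, with an exact permutation p of 0.0952. That is the lowest p open to a gene called in 2 libraries, and a gene called in 1 library cannot go below 0.571. The 13 Hox genes called in 1 library and the 6 called in 2 could not reach 0.05, so the test cannot decide for them. The smallest p that the test could give was 0.00952, and the 97 genes that had it were too few for any to pass adjustment. Comparisons of 2 cell types could not reach 0.05, since the smallest p of an exact test was 0.1 for 2 against 3 libraries and 0.333 for 2 against 2.

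The Hoxa cluster held the most calls. Over its 11 genes and 7 libraries, 40.3% of the 77 gene-library pairs had a TSS peak, where 59.5% of such pairs did over all genes and 28.9% over all Hox genes. Strong peaks were present at 10 of the 77 pairs, beside 48.4% over all genes and 8.79% over all Hox genes.

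Hoxa4 had a TSS peak at percentile 79.7 in alpha 1, 77.8 in alpha 2, 48.1 in beta 1, 53.8 in beta 2, and 65.1 in delta 1, with none in beta 3 and delta 2. The alpha values were the highest, and only those 2 peaks were strong. Hoxa5, a gene needed for lung development, had a TSS peak at 65.6 in alpha 1, 36.6 in alpha 2, and 48.1 in beta 1, and in no other library. In the alpha libraries the strongest peak lay within the gene, with summits 285 bp and 448 bp downstream of the TSS. Beta 1 had 3 peaks of equal rank, which lay on both sides of the TSS. Hoxa10, which patterns the uterus and the lumbar vertebrae, showed the opposite picture, with 48.1 in beta 1, 74.9 in delta 1, and 35.2 in delta 2 and no peak in either alpha library. Hoxa13, a gene of the distal limb and the urogenital tract, was called in 5 libraries, at 21.2 in alpha 1, 72.6 in alpha 2, 48.1 in beta 1, 66.2 in beta 3, and 65.1 in delta 1. Elsewhere in the cluster, Hoxa11 was called in 3 libraries, Hoxa7 and Hoxa9 in 2, and Hoxa2 and Hoxa6 in 1. Hoxa3, a gene of thymus and parathyroid development, was called in none.

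The Hoxb cluster held the fewest calls. Of its 70 gene-library pairs 8.57% had a TSS peak, and 0 had a strong one. Beta 1 gave 3 of the 6 calls, which left 3 calls in 60 pairs without it. Every Hoxb gene had a median percentile of 0. Hoxb9 was called in 2 libraries, at 26.7 in alpha 1 and 48.1 in beta 1. Hoxb1 and Hoxb5 were called in beta 1, Hoxb2 in delta 1, and Hoxb8 in beta 3. Hoxb3, Hoxb4, Hoxb6, Hoxb7, and Hoxb13 were called in none. Hoxb4 is known for its role in blood stem cells and Hoxb13 for its role in the prostate.

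In the Hoxc cluster 31.7% of 63 pairs had a TSS peak. Hoxc13, a gene of hair and nail formation, had the highest median percentile, with 69.5 in alpha 1, 54.0 in alpha 2, 45.3 in beta 3, and 8.04 in delta 1, and no peak in beta 1, beta 2, and delta 2. The alpha values were above all others, but the 2 alpha peaks did not overlap. Their summits lay 831 bp downstream of the TSS in alpha 1 and 250 bp upstream in alpha 2. The alpha 2 peak overlapped those of beta 3 and delta 1, and only the peak of alpha 1 was strong. Hoxc10, a gene of the lumbar spinal cord, had a TSS peak at 79.7 in alpha 1 and 81.0 in alpha 2, with -log10 q of 4.52 and 6.59. In beta 1 the value was 48.1, with a -log10 q of 0.0774, and the other 4 libraries had no peak. The Hoxc5 gene record begins less than 1 kb downstream of Hoxc10 and takes in the same peak, so the values of Hoxc5 were identical to those of Hoxc10 and do not count as a separate observation. Hoxc9 had 11.8 in alpha 1, 17.1 in alpha 2, and 48.1 in beta 1, none of them strong. Hoxc4 and Hoxc11 were called in 2 libraries each, and Hoxc6, Hoxc8, and Hoxc12 in 1.

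In the Hoxd cluster 34.9% of 63 pairs had a TSS peak. Hoxd1 had the highest median percentile, at 60.7 in alpha 1, 88.1 in alpha 2, 85.6 in beta 1, 41.7 in beta 2, and 74.9 in delta 1, and no peak in beta 3 and delta 2. The peak of alpha 2 had a -log10 q of 11.7 and a fold enrichment of 9.03 over the local background. For the peak of beta 1 these were 1.07 and 2.63. Hoxd8 was called at 76.6 in alpha 1, 36.6 in alpha 2, 80.2 in beta 3, and 65.1 in delta 1. Hoxd9 was called at 67.0 in alpha 2, 86.9 in beta 1, 37.8 in delta 1, and 21.9 in delta 2, and with Hoxa10 was 1 of the 2 genes called in both delta libraries. Hoxd10, a gene of the lumbar spinal cord, was called at 42.4 in alpha 1 and 60.1 in alpha 2 and nowhere else. The 2 peaks did not overlap, with summits 561 bp downstream and 41 bp upstream of the TSS. Hoxd12, which acts in the limb, was called at 17.9 in alpha 2, 48.1 in beta 1, and 71.8 in beta 3. Hoxd3, Hoxd4, Hoxd11, and Hoxd13 were called in 1 library each, and the records of Hoxd3 and Hoxd4 start beside each other and take in the same peak.

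**Figure D2:**
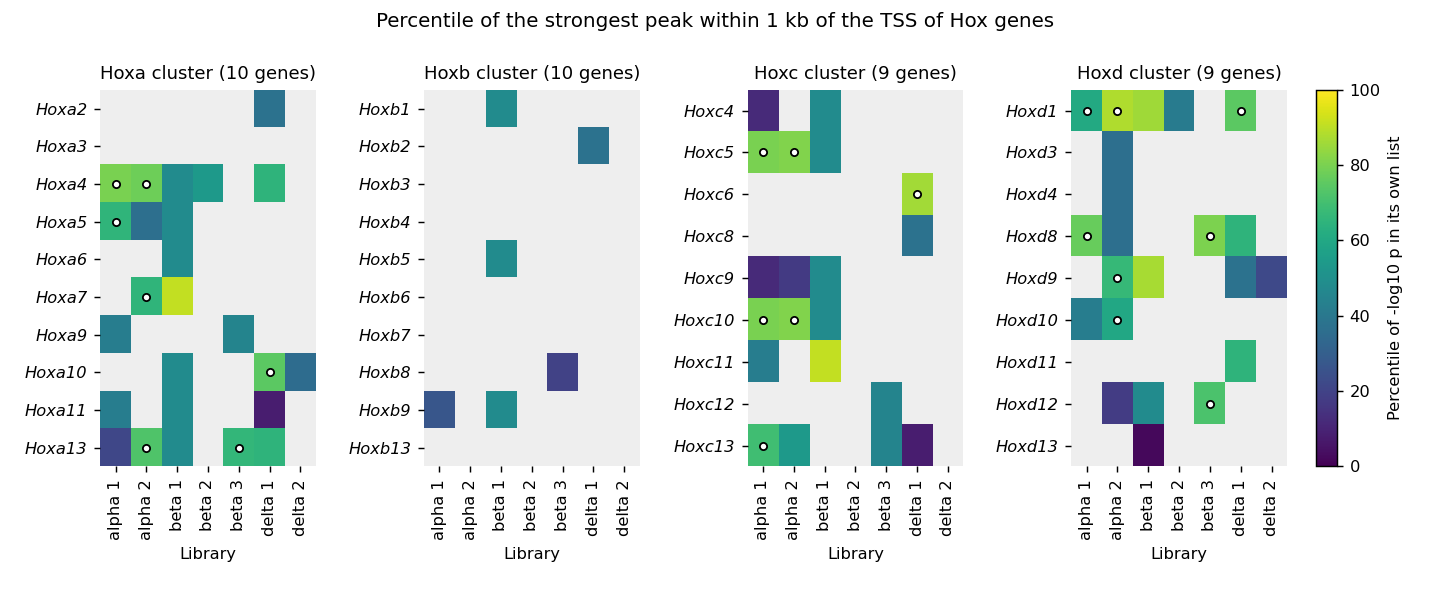
Colour gives the percentile, from 0 to 100 within its own list, of the strongest peak within 1 kb of the TSS of Hox genes (rows, by cluster) in each of the 7 libraries (columns), grey cells hold no peak, and white dots mark strong peaks (-log10 q of 2 or more). The 10 rows of the Hoxb cluster are nearly empty and hold no dot, and dots gather in the 2 alpha columns.

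The share of calls was also taken by position along the axis. Among the 12 anterior genes of groups 1 to 4, 27.4% of 84 gene-library pairs had a TSS peak. The share was 22.1% of 77 for the 11 central genes of groups 5 to 8 and 34.8% of 112 for the 16 posterior genes of groups 9 to 13. For strong peaks the shares were 9.52%, 9.09%, and 8.04%. Posterior genes thus held the highest share of calls but not of strong ones, and no test was made. The Hoxb cluster, with a TSS peak at 8.57% of its pairs, gives only Hoxb9 and Hoxb13 to the posterior class. It gives Hoxb1 to Hoxb4 to the anterior class and Hoxb5 to Hoxb8 to the central class. Position and cluster were not separated in these shares.

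Several Hox genes have more than 1 annotated start, and some were open at another start than the first. The 39 genes have 83 annotated transcript starts, and 23 genes have several. Hoxc6, called in delta 1 alone at the 5' end of its record, has a second start 2272 bp downstream. Within 1 kb of that start a peak was called at percentile 82.5 in alpha 1, 78.0 in alpha 2, 53.8 in beta 2, 86.3 in delta 1, and 79.1 in delta 2. Both alpha and both delta libraries had a strong peak there, and beta 1 and beta 3 had none. The conventional Hoxc5 start, 46372 bp downstream of the record's 5' end, had a peak at 26.7 in alpha 1 and 17.9 in delta 1. Hoxd11 has a start 2766 bp downstream, which was called at 60.0 in alpha 1, 66.1 in alpha 2, and 8.61 in delta 2 and in no beta library. Hoxd3, called in alpha 2 alone at the 5' end of its record, has a start 24588 bp downstream. That start was called at 42.4 in alpha 1, 36.6 in alpha 2, 48.1 in beta 1, 65.1 in delta 1, and 8.61 in delta 2, with no strong peak. With all starts considered, 35 of 39 Hox genes had a peak in at least 1 library, and 4 had none. Of all 21938 protein-coding genes, 19481 had one, so the Hox count was close to the background.

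CpG-rich promoters are often open in many tissues, and those of the Hox genes were examined separately. RefSeq promoters on GRCm38, 250 bp upstream to 50 bp downstream of a start, were matched for 22 of the 39 Hox genes. Among those with no entry matched were Hoxa4, Hoxb2, Hoxb3, Hoxb5, Hoxb6, Hoxb7, Hoxb9, Hoxb13, Hoxc5, Hoxc6, Hoxc8, Hoxc9, Hoxc10, Hoxc11, Hoxc12, and Hoxc13. A promoter was called CpG-rich with a GC content of at least 50% and an observed-to-expected CpG ratio of at least 0.6. This held for 9 Hox promoters, 40.9%, and for 47.7% of the 16522 promoters compared. Of gene-library pairs with a CpG-rich promoter, 87.3% had a TSS peak over all genes and 33.3% over the 9 Hox genes. Of pairs with other promoters, 37.2% had one over all genes and 27.5% over the 13 Hox genes. For Hoxa7, Hoxa9, Hoxc4, and Hoxd4, all among these 13, the RefSeq promoter lies 3281 to 15461 bp from the GENCODE start, so promoter class and peak call refer to different places. All 7 libraries had a TSS peak at 69.4% of all CpG-rich promoters and at 0 of the 9 Hox promoters.

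Promoters are shown for Hoxd1, where peak summits fell within 51 bp of the TSS in 4 libraries, for Hoxd10, called in the alpha libraries, and for Hoxb4, called in none. They are read on the coding strand from RefSeq, with capitals for CCAAT and GGGCGG on either strand. The Hoxd1 promoter lies at chr2:74762730-74763029, the Hoxd10 promoter at chr2:74691641-74691940, and the Hoxb4 promoter at chr11:96318017-96318316, all on the plus strand.
Hoxd1: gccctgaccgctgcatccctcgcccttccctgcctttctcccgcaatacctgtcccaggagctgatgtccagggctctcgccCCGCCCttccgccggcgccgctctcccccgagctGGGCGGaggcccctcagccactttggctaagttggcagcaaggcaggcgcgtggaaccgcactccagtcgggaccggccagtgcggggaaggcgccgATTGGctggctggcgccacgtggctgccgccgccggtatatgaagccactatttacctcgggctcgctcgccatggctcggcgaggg
Hoxd10: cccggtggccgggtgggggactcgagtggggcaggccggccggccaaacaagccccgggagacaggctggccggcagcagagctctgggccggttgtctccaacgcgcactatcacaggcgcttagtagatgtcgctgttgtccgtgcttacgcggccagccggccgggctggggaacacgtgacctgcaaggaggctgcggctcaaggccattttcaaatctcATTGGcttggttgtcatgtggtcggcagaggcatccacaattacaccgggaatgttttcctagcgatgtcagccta
Hoxb4: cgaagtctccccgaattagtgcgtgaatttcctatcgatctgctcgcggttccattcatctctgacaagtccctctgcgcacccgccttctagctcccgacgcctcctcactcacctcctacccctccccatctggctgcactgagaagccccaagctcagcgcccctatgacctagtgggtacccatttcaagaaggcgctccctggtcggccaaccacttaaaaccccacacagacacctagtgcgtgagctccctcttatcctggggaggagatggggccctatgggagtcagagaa

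Motifs were searched on both strands of these promoters, and overlapping matches counted once per promoter. CCAAT was present in 63.6% of the 22 Hox promoters and in 38.8% of all promoters. GGGCGG, the GC box, was present in 40.9% and 48.2%, and TATAAA in 13.6% and 12.9%. TGATTNAT, a joint HOX and PBX motif, was found in 1 Hox promoter, that of Hoxa2, and in 2.83% of all. A CTCF core of 12 letters was in 0 Hox promoters and 0.569% of all, and the DR5 retinoic acid response element in 0 and 0.0726%.

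The share of the clusters under peaks was set beside that of the genome. With the 50 kb on either side, peaks covered 1.62% ± 0.00222 (SD, n = 2) of the clusters in alpha libraries and 1.32% ± 0.0556 of the genome in the same lists. In beta libraries they covered 1.54% ± 1.37 (SD, n = 3) of the clusters and 2.07% ± 1.91 of the genome. In delta libraries they covered 0.811% ± 0.479 (SD, n = 2) of the clusters and 1.28% ± 0.553 of the genome. The beta range held the alpha values and overlapped the delta range, and without beta 1 the beta mean was 0.764%. As a ratio of cluster to genome coverage within a list, alpha 1 had 1.19 and alpha 2 had 1.26. Beta 1 had 0.721, beta 2 had 0.563, and beta 3 had 0.988, and delta 1 had 0.689 and delta 2 had 0.532. Over all peaks both alpha values were above 1 and above those of the other libraries, and the beta and delta values overlapped. This order did not hold at equal list length. With 50000 peaks per list the ratios were 0.526 in alpha 1, 0.976 in alpha 2, 0.388 in beta 1, 0.588 in beta 2, 0.800 in beta 3, 0.270 in delta 1, and 0.263 in delta 2, so that alpha 1 was below beta 2 and beta 3. For strong peaks all 7 ratios were below 1, with 0.647 and 0.956 in alpha libraries, 0 to 0.538 in beta libraries, and 0.249 and 0.218 in delta libraries.

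The clusters also differed from each other. Over all peaks, coverage of the Hoxb window was below that of the genome in every library, with ratios from 0.0822 in delta 2 to 0.911 in alpha 1. In the Hoxd window the ratio was lowest in beta 2, at 0.625, and highest in alpha 2, and it exceeded 1 in both alpha libraries, in beta 3, and in delta 1. The Hoxa and Hoxc windows exceeded 1 in the alpha libraries only, at 1.12 and 1.54 for Hoxa and at 1.46 and 1.39 for Hoxc. This did not hold at equal list length. With 50000 peaks per list, Hoxa exceeded 1 in alpha 2 alone, at 1.60, and was 0.664 in alpha 1, and Hoxc exceeded 1 in no library. Hoxd then exceeded 1 in alpha 2, at 1.84, and in beta 1, at 1.06, and Hoxb in beta 3, at 1.19. Among strong peaks Hoxa exceeded 1 in alpha 2, at 1.62, and in beta 3, at 1.06. In the full lists, coverage between the first and last gene of the clusters was higher than in the flanks in 6 of 7, for instance 2.19% beside 0.921% in alpha 1 and 0.694% beside 0.200% in delta 2. In beta 2 it was 0.487% beside 0.526%.

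**Figure D3:**
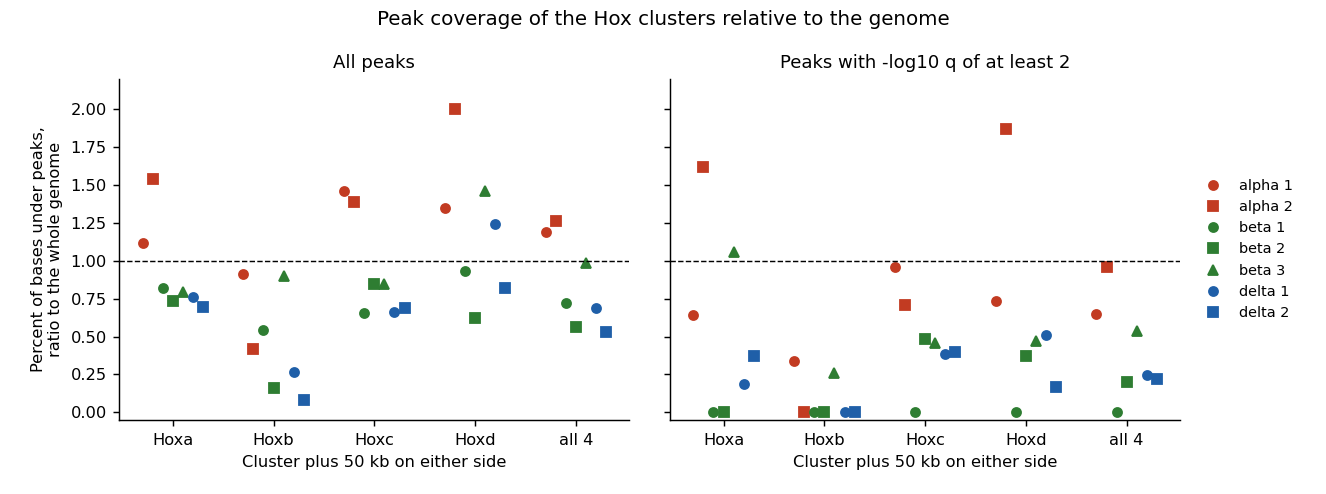
Points give the percent of bases under peaks in each Hox cluster plus 50 kb, divided by the percent of the whole genome under peaks in the same library (y axis, ratio), by cluster (x axis) and library (colour for cell type, symbol for replicate), and the dashed line marks a ratio of 1. In the left panel, with all peaks, both alpha points of the 4 clusters together lie above 1 and the other 5 below it, and all 7 Hoxb points lie below 1.

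Few regions of the clusters were shared widely. Peaks that overlapped between libraries were merged, which gave 53 regions of at least 2 libraries in the windows, of 133698 in the genome. None of the 53 was called in all 7 libraries, where 13.3% of the regions of the genome were. In at least 5 libraries 5 were called, beside 27.2%. Among them were regions at the TSS of Hoxa4 (chr6:52191739-52192273) and Hoxd1 (chr2:74762607-74763335), at the second start of Hoxc6, and between Hoxd12 and Hoxd13. Of the 53 regions, 18 lay within 1 kb of the TSS of a Hox gene, 13 in other exons, 8 in introns, and 14 between genes. By cluster there were 14 in the Hoxa window, 7 in the Hoxb window, 13 in the Hoxc window, and 19 in the Hoxd window. In the Hoxb window 0 of the 7 were at a Hox TSS.

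The region at the second Hoxc6 start, chr15:102999204-102999829, was strong in more libraries, 4, than any other. It lies in introns of the Hoxc6 and Hoxc5 records. The -log10 q was 5.61 in alpha 1, 5.42 in alpha 2, 7.27 in delta 1, 8.21 in delta 2, and 1.82 in beta 2, and beta 1 and beta 3 had no peak. All alpha and delta values were above the single beta value. The intergenic region between Hoxd12 and Hoxd13, chr2:74672949-74673363, lies 1857 bp upstream of the Hoxd12 TSS. Its percentiles were 64.6 in alpha 2, 85.6 in beta 1, 53.8 in beta 2, 85.3 in delta 1, and 55.8 in delta 2, and alpha 1 and beta 3 had no peak. Its peaks were strong in alpha 2, delta 1, and delta 2. No other region of the clusters was strong in both delta libraries, and these 2 are therefore shown.

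The sequences are 300 bases of GRCm38 around the strongest summit, on the plus strand, at chr15:102999522-102999821 and chr2:74673017-74673316. Capitals mark CCAAT and GGGCGG on either strand.
Hoxc6 second start: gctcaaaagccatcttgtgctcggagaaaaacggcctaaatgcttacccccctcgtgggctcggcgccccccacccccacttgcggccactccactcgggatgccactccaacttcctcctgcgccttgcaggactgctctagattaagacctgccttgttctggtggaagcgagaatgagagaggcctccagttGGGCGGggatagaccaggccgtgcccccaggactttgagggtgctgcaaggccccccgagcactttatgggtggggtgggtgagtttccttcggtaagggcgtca
Between Hoxd12 and Hoxd13: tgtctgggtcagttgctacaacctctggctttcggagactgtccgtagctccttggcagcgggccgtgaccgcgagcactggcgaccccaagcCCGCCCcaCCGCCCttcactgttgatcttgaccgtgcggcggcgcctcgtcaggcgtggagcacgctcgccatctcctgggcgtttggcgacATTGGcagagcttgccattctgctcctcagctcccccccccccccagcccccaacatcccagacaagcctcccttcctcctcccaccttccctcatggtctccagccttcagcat

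The same 300-base windows were searched for motifs in all 53 regions and in 128896 regions of the genome outside chromosome 18. GGGCGG was present in 43.4% of the Hox regions and in 13.8% of all regions, and CCAAT in 41.5% and 35.9%. TATAAA was present in 5.66% and 15.5%, and TGATTNAT in 3.77% and 5.46%. The CTCF core was in 0 of 53 and in 2.44% of all, and the retinoic acid response element in 0 and 0.114%.

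Regions of a single cell type were then counted among the 53. Called in both alpha and no other library were 4, which is 7.55%, beside 2.42% of all regions. They lay in an exon of Hoxc9 (chr15:102981917-102982144), in an exon of Hoxd11 (chr2:74682254-74682591), and at 2 places inside the Hoxd3 and Hoxd4 records (chr2:74715057-74715307 and chr2:74715790-74716106). The last of them overlaps an exon of the antisense gene Hoxd3os1 and reached a -log10 q of 2.16 in alpha 1 and 2.03 in alpha 2. Called in 2 or more beta libraries and no other were 4, or 7.55% beside 10.7%. In both delta libraries and no other 1 was called, or 1.89% beside 2.06%, in an exon of Hoxd3. Regions strong in both alpha libraries and in no other numbered 3, or 5.66% beside 2.05%, where the other libraries had weaker peaks or none. These regions were those at the TSS of Hoxc10 and Hoxa4 and at Hoxd3os1.

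**Figure D4:**
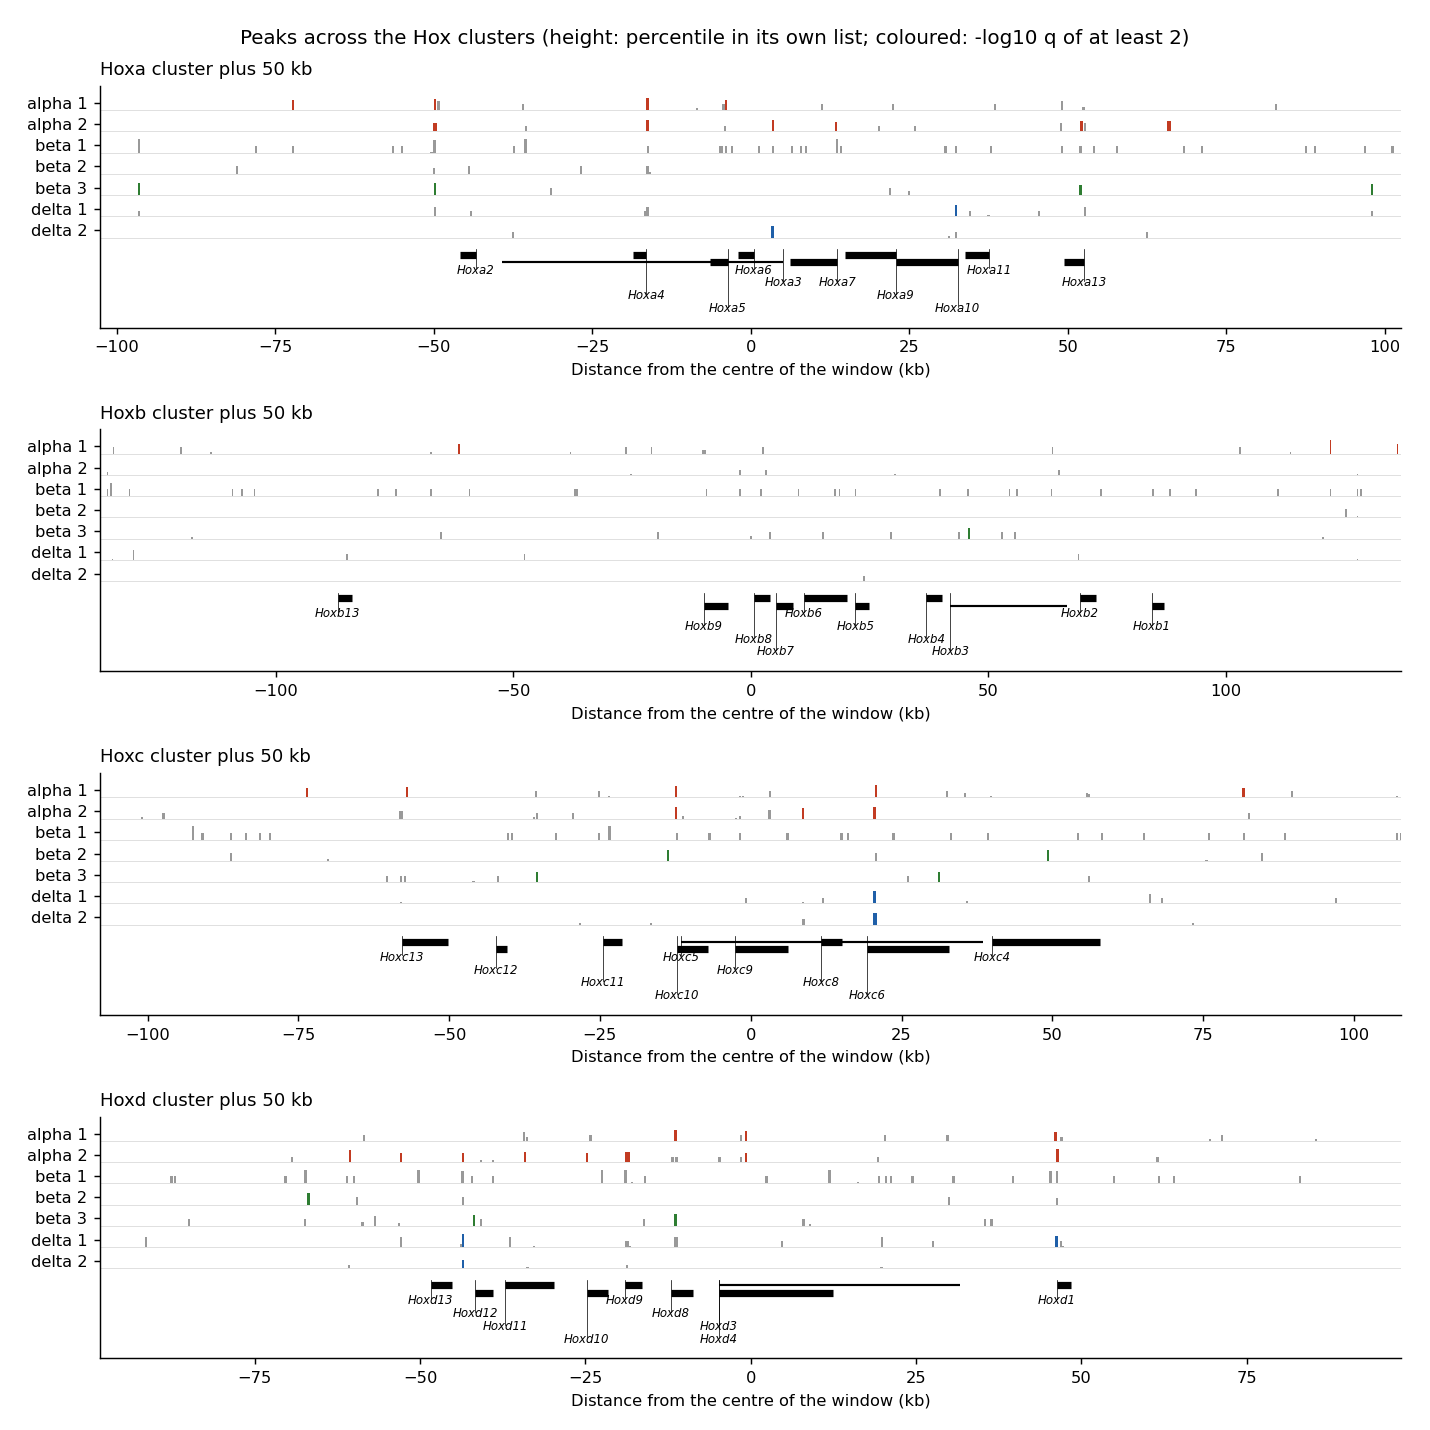
Each panel shows a Hox cluster plus 50 kb on either side, with distance from the centre of the window in kb on the x axis, a row of peaks for each library, and Hox genes below (bars, thin lines for records over 20 kb, and vertical ticks at the TSS). Peak height is the percentile in its own list, strong peaks (-log10 q of 2 or more) are red (alpha), green (beta), or blue (delta), other peaks are grey, and blue marks stand at Hoxc6 and between Hoxd12 and Hoxd13 in both delta rows.

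The non-coding genes of the clusters were largely without strong peaks. Of 7 miRNA genes in the windows, 5 had a peak within 1 kb of the annotated hairpin in at least 1 library and 0 had a strong one. The annotated start of a miRNA gene is its hairpin and not the start of its primary transcript. The miR-10 and miR-196 families, which repress Hox transcripts, are shown by their mature 5p arms from RefSeq, with the seed, bases 2 to 8, in capitals.
mmu-miR-10a-5p: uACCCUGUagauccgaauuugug
mmu-miR-10b-5p: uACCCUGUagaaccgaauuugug
mmu-miR-196a-5p: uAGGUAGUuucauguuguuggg
mmu-miR-196b-5p: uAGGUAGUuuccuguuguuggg

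The members of each family share a seed and sit in different clusters. Mir10a and Mir196a-1 in the Hoxb cluster had no peak in any library. Mir10b in the Hoxd cluster had a peak at percentile 9.75 in beta 3, and Mir196a-2 in the Hoxc cluster one at 48.1 in beta 1. Mir196b in the Hoxa cluster was called at 42.4 in alpha 1 and 45.3 in beta 3, and its hairpin lies 924 bp from the Hoxa9 TSS. Mir615 was called at 26.7 in alpha 1 and 17.9 in delta 1.

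Among long non-coding RNAs, Hotair and Hottip, which are known to guide chromatin modifiers, each had a peak in beta 1 alone, at percentile 48.1. Hotairm1 had one at 2.14 in beta 1. Haglr starts 84 bp from Hoxd1 on the other strand and shared the peaks of Hoxd1. Hoxd3os1 was called in both alpha libraries, at 65.6 and 60.1, and in no other library. Evx2, the even-skipped homologue beside Hoxd13, was called at 63.1 in beta 3 only, and Evx1, beside Hoxa13, in no library.

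Genes for HOX cofactors and Polycomb subunits mostly had TSS peaks, where 41.5% of all genes had one in all 7 libraries. Of the 9 cofactor genes, 8 had a TSS peak in all 7 libraries, and 92.1% of their gene-library pairs were called. Pbx2 was the exception, with 77.7 in alpha 1, 66.8 in alpha 2, and no peak in the other 5. Of the 21 Polycomb genes 14 had a TSS peak in all 7 libraries, among them Ezh2, the histone methyltransferase, at 97.1 to 99.7, and Suz12 at 82.8 to 96.1. Pcgf2, also known for repression of Hox genes, had 58.3 in alpha 1, 66.8 in alpha 2, and no other peak. Of the 9 Trithorax and menin genes 4 had a TSS peak in all 7 libraries, a share near that of all genes, and Dpy30 and Kdm6b had none in any. Kmt2a ranked at 67.7 to 91.5, and Men1, which encodes menin, was called in 6 libraries. None of Pbx2, Pcgf2, Kmt2a, and Men1 had an unadjusted exact permutation p of at most 0.05, which Pbx2 and Pcgf2, called in the alpha libraries alone, could not reach.

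Of the other homeobox families, ParaHox, Dlx, and Irx genes had higher shares than the Hox genes and Evx genes a lower one, 7.14%. Of gene-library pairs, 50.0% were called for the 6 ParaHox genes, 50.0% for the 6 Dlx genes, and 42.9% for the 6 Irx genes, beside 28.9% for the Hox genes. For strong peaks the shares were 23.8%, 21.4%, 21.4%, and 8.79%. Pdx1 had a TSS peak in 6 libraries, at 60.7 in alpha 1, 78.0 in alpha 2, 87.6 in beta 1, 85.9 in beta 3, 81.5 in delta 1, and 64.2 in delta 2. Cdx4, an upstream regulator of Hox genes, was called in all 7, at 85.6 and 83.8 in alpha libraries, 48.1, 12.5, and 45.3 in beta libraries, and 79.7 and 66.2 in delta libraries. The beta values were the lowest, with an unadjusted exact permutation p of 0.0286 that did not pass adjustment.

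**Figure D5:**
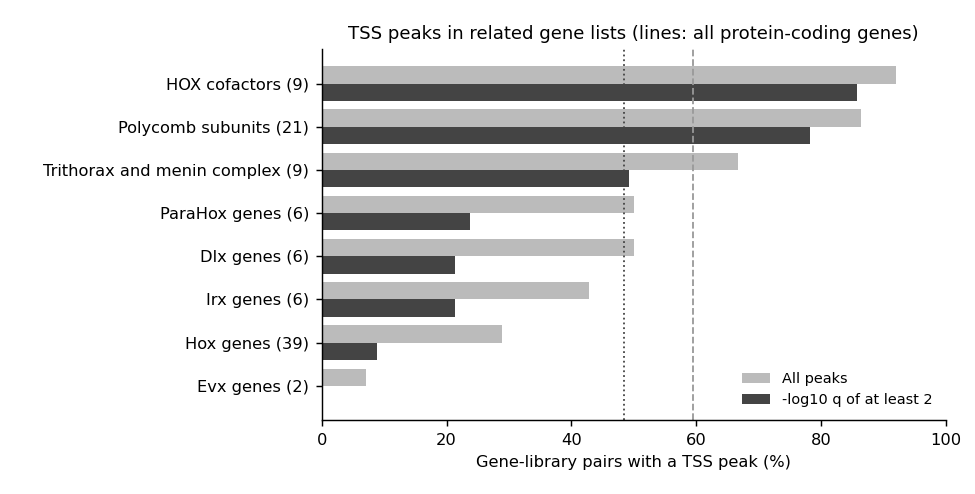
Bars give the percent of gene-library pairs with a TSS peak (x axis) for each gene list (y axis, number of genes in parentheses), in light grey for all peaks and in dark grey for strong ones (-log10 q of 2 or more), and vertical lines mark the shares of all protein-coding genes, dashed at 59.5% and dotted at 48.4%. HOX cofactors at 92.1% lie above the dashed line and Hox genes at 28.9% below it.

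Mice had been pooled by sex, and the share of peaks on chromosome Y separated the libraries. Chromosome Y held 0.0816% to 0.121% of the peaks in alpha 1, beta 2, and delta 1 and 0.442% to 3.52% in the other libraries. Hox genes with a TSS peak numbered 16, 3, and 14 in the former and 16, 20, 8, and 2 in alpha 2, beta 1, beta 3, and delta 2. The former are the pools of female mice and the latter those of male mice as given with the study under the same numbering. Beta cells were sorted from the same animals as alpha or delta cells, so a beta library may share mice with another library of its sex. Alpha and delta libraries came from different lines and share no mice. The permutation test does not take shared mice into account.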

How the data were processed

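ATAC-Seq peaks of 2 alpha, 3 beta, and 2 delta libraries were analysed, each library a pool of mice. Per the labels and methods, the authors used Trimmomatic for trimming and Bowtie 2 for alignment to mm10, with no mitochondrial genome in the index. Picard marked duplicates, blacklisted regions were dropped, and MACS2 gave a separate peak list for every library. Versions are not given in the sources used here. The deposited -log10 p and -log10 q values and the fold enrichment, a ratio to local background, come from these calls, and the deposited score is 10 times the -log10 p. The lowest -log10 p was 2.01 in every list. Some single-gene results are not reported here. Lists hold no reads, so no detection limit could be set for a missing peak and the read-count test of the study was not repeated. Sequencing depths are given with the study and differed between libraries, and they entered no fit.

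Rows that repeat an interval were counted once. Peaks were matched to GENCODE vM21 starts with Python 3.11.15 and numpy 2.4.6, and 0 peaks passed a chromosome end of GRCm38. Percentiles used -log10 p, and the permutation test was tested on simulated data. Members and gene lists were chosen with earlier results of these data known. The rule for genes given in full took, per cluster, the highest and lowest median percentile, and genes called in 2 or more replicates of 1 cell type but missing from another. Hoxa4, Hoxa13, Hoxd8, Hoxd9, the regions of Hoxc6 and Hoxd12, the downstream start of Hoxd3, Ezh2, Suz12, Kmt2a, Men1, and Pdx1 were added after their values were seen. Alternatives were strong peaks alone (-log10 q of 2 or more), the 50000 best peaks, a 3 kb window, any transcript start, clusters without the 50 kb, ranking by fold enrichment, leaving out each library, and a replicate block.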

Additional observations from a re-analysis of the deposited data

How the results depend on the processing

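Of 81 recomputed values, 49 stayed within 1 SD of the reported one, within 1.5 times a reported count, or on the same side of the test threshold, 32 moved, and 0 reversed. The SD of beta coverage is wide, so that values far apart lie within it. The cause was not tested beyond what each setting itself changes. Strong peaks alone (-log10 q of 2 or more) changed the Hox genes called in at least 2 replicates to 5 for alpha, 0 for beta, and 0 for delta cells, and those called in no library to 24. With 50000 peaks per list these values were 4, 0, 0, and 23, and genes called in one cell type and not in another numbered 4 where 7 were reported. A 3 kb window gave 17, 11, and 5 genes in at least 2 replicates, 0 in no library, and 12 called in one cell type and not in another. Any transcript start gave 11 in beta and 5 in delta cells. Coverage of the clusters became 0.598%, 0.118%, and 0.157% in alpha, beta, and delta libraries with the q threshold, 0.562%, 0.349%, and 0.192% in the same order with 50000 peaks, and 2.23% in alpha libraries without the flanks.

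With each library left out in turn, genes in at least 2 replicates, or in the 1 remaining, ranged from 16 to 16 in alpha, 1 to 3 in beta, and 2 to 14 in delta cells (1 without beta 1, 14 without delta 2). Genes in all libraries ranged from 0 to 1 (1 without delta 2), genes in none from 6 to 11 (10 without beta 1, 11 without delta 1), and genes called in one cell type and not in another from 7 to 13 (12 without alpha 2 or delta 2, 13 without delta 1). Shares of all genes are not given beside these counts, so a change particular to Hox genes cannot be told from a general one. Coverage ranged from 1.62% to 1.62%, 0.764% (without beta 1) to 2.05%, and 0.473% (without delta 1) to 1.15%. The permutation test passed 0 Hox genes after adjustment in each alternative. Hoxd11 alone reached an unadjusted p of at most 0.05, with any transcript start. That was 1 of 35 Hox genes tested, beside 2.49% of 19481 genes, which is close to the background. Without a beta library the smallest p was 0.0667, so nothing could pass.

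Deviations of same-numbered libraries correlated between -0.0455 and 0.105. With 2 libraries in a cell type their deviations mirror each other, as with -0.0300 for alpha 1 and 0.0300 for alpha 2 against beta 1. These values therefore cannot decide whether the replicate numbers pair the libraries. A replicate block passed 0 Hox genes, with a smallest p of 0.0556. Sharing of mice between beta libraries and other libraries of the same sex was not modelled. Peaks at the commonest p-value of a list made up 19.5% to 73.0% of it, and the part of depth was not tested.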
